A study of Mus musculus with 23 samples.

Results

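The 10 genes described here encode the muscle nicotinic acetylcholine receptor and the proteins that cluster it at the neuromuscular junction. They were chosen by name from 32793 gene rows: the receptor subunit genes Chrna1, Chrnb1, Chrnd, Chrng and Chrne, and the clustering genes Agrn, Lrp4, Musk, Dok7 and Rapsn. All 10 were in the table and all 10 passed the filter on low counts, Chrne only through the groups in which it was highest. Chrne is therefore described by its counts and levels, and counts of genes past a test below are over the other 9. Poly(A)-selected RNA from C2C12, an established mouse myoblast line that fuses into myotubes when serum is lowered, was sequenced in 23 libraries. Control cells (WT) and cells with the genotype Runx1KO (here "labelled KO") were collected at day 0 in growth medium (20% fetal bovine serum) and on days 1, 3 and 6 in differentiation medium (2% horse serum). There were 8 groups of 3 libraries, apart from WT at day 0 with 2. Titles give the last day as 6 and the series text gives 5, and the titles were followed. The labels name no other allele or agent, do not say how the Runx1KO cells were made or whether they are 1 clone, and do not say that the numbered replicates came from separate cultures, so p-values measure the spread between these libraries only. A myoblast line grown alone has no nerve.

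The muscle receptor is a pentamer of alpha, beta and delta subunits with either the fetal gamma subunit (Chrng) or the adult epsilon subunit (Chrne), and muscle replaces gamma with epsilon as the junction matures. Agrin from the nerve binds Lrp4, which activates the kinase MuSK, and with the adaptor Dok7 this signal leads rapsyn to hold receptors in dense clusters. In muscle the subunit genes are switched on by myogenic basic helix-loop-helix factors, which bind E-boxes, while ETS factors act on N-boxes in genes expressed under the nerve terminal.

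RefSeq promoter sequences (build GRCm38.p6) were matched by symbol for 7 of the 10 genes, with 9 start sites in all. Both strands of the 250 bases before each start were searched for the E-box CANNTG, its form CAGCTG (contained in CANNTG), the N-box core CCGGAA, and both spellings of the Runx core, TGTGGT and TGCGGT. Chrng and Chrna1, the genes of the set with 2 CAGCTG matches, and Chrne, the gene that replaces Chrng in adult muscle, are shown 5′ to 3′ up to their RefSeq gene record, with CAGCTG and CCGGAA in capitals. The Chrng stretch shown lies at chr1:87205651-87205810 on the plus strand, that of Chrna1 at chr2:73580339-73580498 on the minus strand and that of Chrne at chr11:70619214-70619354 on the minus strand.
Chrng: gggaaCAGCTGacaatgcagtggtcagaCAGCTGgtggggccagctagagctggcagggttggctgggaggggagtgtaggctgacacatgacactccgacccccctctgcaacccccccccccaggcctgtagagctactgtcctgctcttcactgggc
Chrna1: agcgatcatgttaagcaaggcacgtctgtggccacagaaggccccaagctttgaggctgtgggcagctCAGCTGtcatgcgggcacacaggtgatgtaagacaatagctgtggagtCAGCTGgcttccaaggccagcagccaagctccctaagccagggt
Chrne: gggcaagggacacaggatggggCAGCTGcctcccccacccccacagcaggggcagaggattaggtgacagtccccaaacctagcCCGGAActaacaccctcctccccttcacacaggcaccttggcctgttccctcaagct
The Chrng sequence held CAGCTG at positions -155 and -132 and the Chrna1 sequence at -92 and -44, counted back from the start site to the first base of the motif. Musk held it once, at -68, and the 5 windows of Chrnb1, Agrn and Dok7 did not hold it. Of 32851 mouse promoters of the same length, 13% held CAGCTG and 1.26% held it at least 2 times, while 66.2% held CANNTG. Chrne held CAGCTG at -138 and CCGGAA at -76, and 12% of all promoters held CCGGAA. The first Runx spelling, TGTGGT, present in 14% of promoters, was in none of the 9 windows, and TGCGGT, present in 5.1%, was in 1 window of Agrn, at -8. These matches describe letters in the reference only.

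The targeted gene went against its label at the level of mRNA. Runx1 stood at 118, 119 and 122 CPM (counts scaled to library size by edgeR's TMM) in the day 0 libraries labelled KO against 84.0 and 83.9 in WT, and at 297, 319.7 and 315 against 146, 148 and 165 on day 6, and was higher on all 4 days (edgeR log2FC 0.51, 0.35, 0.54 and 1.02). Gene-level counts show neither a frameshift nor protein, so they do not test the disruption itself, and every direction below is that of the labelled groups. Library totals ran from 22197606 to 23684077 estimated counts. The second day 1 library labelled KO stood apart: its root mean square deviation from its group mates was 0.545 on the log2 scale, against 0.316 to 0.403 in the other 22, and values without it are given beside the main day 1 results. The summed level of 10 muscle markers was 1010 to 1424 TPM (a level scaled by transcript length and depth) on day 0. In WT it was 1301 to 1391, 3594 to 3700 and 2816 to 3267 TPM on days 1, 3 and 6, and in labelled KO libraries 1330 to 1677, 5452 to 9172 and 12550 to 14100 TPM. In bulk RNA, fewer cells of a type and less RNA per cell cannot be told apart, and the part that the number of differentiated cells plays in the results below was not tested. Of the markers of other cells at a junction, 4 of 6 motor neuron markers (Chat, Slc18a3, Slc5a7 and Mnx1) were at 0 in all 23 libraries, and the 6 summed to 0 in labelled KO libraries and to 0.33 to 0.78 TPM in WT, from Isl1 and Nefm. The 6 Schwann cell markers summed to 0.29 to 1.25 TPM. In RefSeq 4 of the 10 genes overlap another gene: Chrna1 (Gm30940), Chrne (4930544D05Rik), Agrn (Gm46878) and Rapsn (Gm13778). Whether counting used strand is not given in the sources used here, so reads of these overlaps cannot be told apart.

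In growth medium the alpha subunit gene was already the most abundant of the set and the gamma subunit gene was barely expressed. Chrna1 stood at 135.53 and 135.76 TPM in WT and 142.39, 152.79 and 152.90 TPM in labelled KO libraries. Rapsn, which encodes the scaffold rapsyn, and Chrnb1, which encodes the beta subunit, came next at 72.34 to 89.98 TPM, followed by Chrnd (delta subunit) at 30.31 to 38.19 TPM. Of the clustering genes, Dok7, Agrn, Musk and Lrp4 followed in that order of group means in both genotypes, with Lrp4 at 3.91 to 5.70 TPM. Chrng had 4.56 and 5.22 TPM in WT and 4.91, 5.38 and 3.56 TPM in labelled KO libraries, overlapping the range of Lrp4. Chrne had no read in any of the 5 day 0 libraries, where the limit that a count of 0 allows (3 counts per library) is 0.132 to 0.14 CPM.

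**Figure D1:**
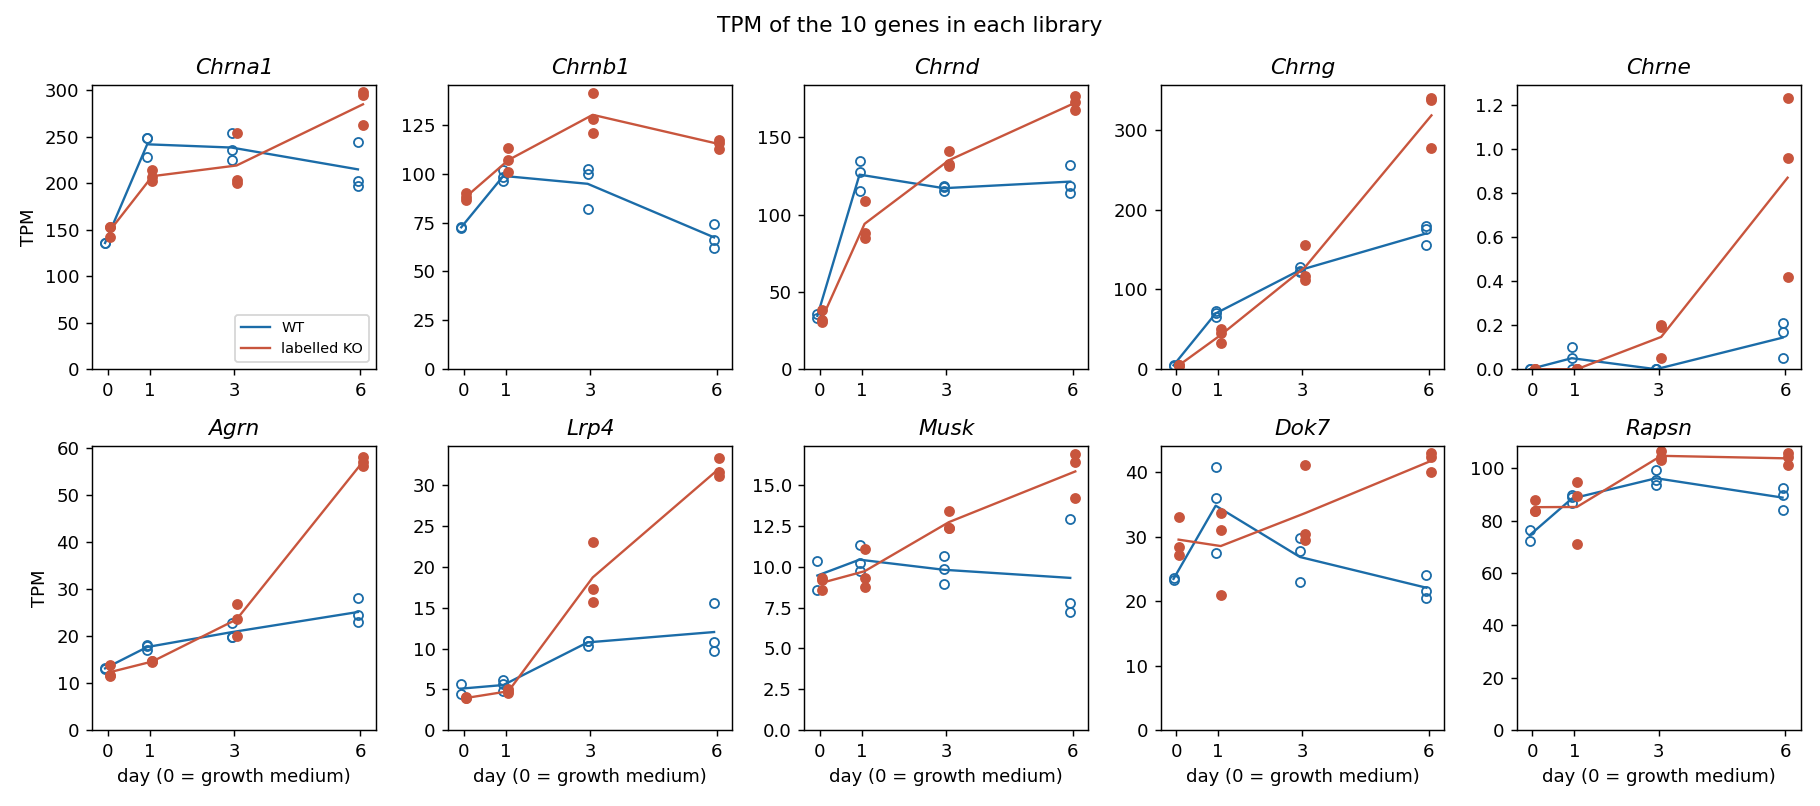
Level of each of the 10 genes (TPM, linear axes from 0, 1 panel per gene) against day, with 1 point per library and a line through the group means; WT is open and blue, labelled KO filled and red. Chrng climbed from about 5 TPM in both genotypes to 156.09 to 179.24 TPM in WT and 276.92 to 339.27 TPM in the day 6 libraries labelled KO.

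When serum was lowered, WT cells raised the receptor genes within 1 day, led by the gamma subunit. Chrng went from 4.97 and 4.77 CPM on day 0 to 64.1, 61.5 and 70.2 CPM on day 1, then 122, 116 and 116 CPM on day 3 and 173, 159.7 and 151 CPM on day 6. The rise over day 0 was 13.4-fold on day 1, 24.2-fold on day 3 and 33.1-fold on day 6. None of the 3 days overlapped day 0, as was true of 74.5%, 77.8% and 75.1% of all genes, and day 6 did not overlap day 3 (29.4% of all genes). Chrnd, its neighbour on chromosome 1 (the Chrnd record ends 5741 bases before the Chrng start), stepped up 3.33-fold by day 1, from 63.7 and 61.8 CPM to 208, 191 and 228 CPM, and then stayed between 188 and 198 CPM. Chrna1 rose by a log2 fold change (log2FC) of 0.70 (SE 0.10) on day 1 and was 0.48 (SE 0.10) above day 0 on day 6. Chrnb1 rose by day 1 (log2FC 0.31) and then fell below its starting level by day 6 (log2FC -0.29, edgeR quasi-likelihood adjusted p = 0.00896), from 90.4 and 96.0 CPM to 71.3, 81.1 and 76.0 CPM. The Chrnb1 call was lost without day 0 replicate 2, day 6 replicate 1 or day 6 replicate 3 (log2FC -0.25, -0.19 and -0.23, adjusted p up to 0.1) and with limma on TPM. Chrng, Chrnd and Chrna1 were above day 0 on all 3 days.

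Of the WT clustering genes, Agrn and Lrp4 rose. Agrn, which encodes agrin, was higher than on day 0 on days 1, 3 and 6 (log2FC 0.37, 0.58 and 0.81; on day 1 not without day 0 replicate 2, at 0.25 and adjusted p = 0.19), and Lrp4, the agrin receptor, on days 3 and 6 (log2FC 0.99 and 1.09). Musk, Rapsn and Dok7 did not pass the test on day 3 or day 6, and Dok7 passed only on day 1 (log2FC 0.44, adjusted p = 0.0468, and 0.0791 with replicate number as a block), a call lost without either day 0 library or day 1 replicate 1 or 3 (adjusted p up to 0.142). Counted over the set, 6 of 9 genes rose on day 1, when 27.1% of all 14187 tested genes rose. On day 3, 5 rose (29.2% of all genes), and on day 6, 5 rose (32.6%) and 1 fell (31.1%). The median log2FC of the 9 genes other than Chrne was 0.37, 0.58 and 0.48 on the 3 days, against 0.02, 0.02 and 0.05 over all tested genes. Between days 3 and 6 in WT, where 9.79% of all genes changed, Chrng rose (log2FC 0.45, adjusted p = 0.0417, 0.051 with the block, and up to 0.146 without any 1 library except day 6 replicate 3) and Chrnb1 fell (log2FC -0.50, adjusted p = 0.000313).

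In the cells labelled KO Chrng, Chrnd and Chrna1 rose from day 1 on, and of the 9 genes Chrng and Lrp4 were furthest above day 0 on day 6. Chrng went from 5.62, 5.69 and 3.75 CPM on day 0 to 40.6, 29.6 and 46.3 CPM on day 1, 159.1, 114 and 121 CPM on day 3, and 269, 352 and 355 CPM on day 6. Chrng was 7.72-fold, 26.1-fold and 64.7-fold above day 0. None of these days overlapped day 0, as was true of 53.6%, 68.2% and 76.2% of all genes, and day 6 did not overlap day 3 (55% of all genes). Chrnd rose 2.54-fold, 3.83-fold and 4.79-fold over day 0, and Chrna1 reached a log2FC of 0.82 (SE 0.09) on day 6. Without the day 1 library that stood apart, the day 1 log2FC was 3.12 for Chrng, 1.45 for Chrnd and 0.36 for Chrna1, in place of 2.95, 1.34 and 0.32. Chrnb1 did not pass on day 1 (log2FC 0.12, adjusted p = 0.223) and was above day 0 on days 3 and 6 (log2FC 0.48 and 0.27, adjusted p = 3.28e-05 and 0.00609), whereas in WT it was at -0.29 on day 6. Lrp4 changed most among the clustering genes. It stood at 18.8, 19.2 and 20.6 CPM on day 0 and at 20.8, 21.0 and 21.1 CPM on day 1. It then reached 114, 85.4 and 81.2 CPM on day 3 and 156, 158 and 157 CPM on day 6, 8.03-fold above day 0. Agrn was 4.44-fold above day 0 on day 6, and Musk, which encodes the kinase, was higher on days 3 and 6 (log2FC 0.41 and 0.78).

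Counts over the set in the cells labelled KO were 3 of 9 genes higher on day 1 (27.2% of all genes), 8 on day 3 (30.4%) and 8 on day 6 (36.6%), with none lower. Without the second day 1 library, which stood apart, 5 were higher on day 1, Chrnb1 and Agrn being the additions. Rapsn passed on day 3 (log2FC 0.23, adjusted p = 0.0383, up to 0.13 without any 1 library except day 0 replicate 3) and not on day 6 (log2FC 0.18, adjusted p = 0.0928). Dok7 passed on day 6 only (log2FC 0.38, adjusted p = 0.0424), a call lost without day 0 replicate 1 or 2 or day 6 replicate 2 or 3 (adjusted p up to 0.148). Between days 3 and 6, where 20.2% of all genes rose and 21.2% fell, 6 of 9 rose, led by Chrng (log2FC 1.31, SE 0.14) and Agrn (log2FC 1.28, SE 0.10). Chrnb1 fell over that interval (log2FC -0.21, adjusted p = 0.0479), a call lost in 10 of 14 alternative fits (adjusted p up to 0.209). Those were the block (adjusted p = 0.0629), RLE scaling (log2FC -0.16, adjusted p = 0.129), no filter, DESeq2, limma on TPM with either pseudocount, and leaving out replicate 1 or 2 of either day. Musk rose by 0.37 between days 3 and 6, a call lost with limma on TPM and without day 3 replicate 2 or 3 or day 6 replicate 2 (adjusted p up to 0.136).

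Between genotypes at the same day, 1 of the 9 genes was higher in labelled KO libraries in growth medium, 2 were lower on day 1, 7 were higher on day 3 and all 9 on day 6. In growth medium, where 17.5% of all genes differed (7.36% higher, 10.1% lower), only Chrnb1 was called, at 114, 122 and 118 CPM in labelled KO libraries against 90.4 and 96.0 CPM in WT (log2FC 0.34, SE 0.09, adjusted p = 0.0124). That call was lost without the first WT library (log2FC 0.32, adjusted p = 0.116). A fit of only the day 0 libraries called 5 of the 9, with Chrna1 (log2FC 0.20), Dok7 (0.40) and Rapsn (0.24) also higher and Lrp4 lower (-0.31). Chrng differed by a log2FC of 0.05 (SE 0.23) and Chrnd by 0.01 (SE 0.11).

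On day 1, where 42.2% of all genes differed (22.9% higher, 19.2% lower), Chrng and Chrnd were lower in labelled KO libraries and the other 7 genes did not pass. The Chrng values were 40.6, 29.6 and 46.3 CPM against 64.1, 61.5 and 70.2 CPM in WT (log2FC -0.75, SE 0.14, adjusted p = 0.000227). The Chrnd values were 157, 139 and 186 CPM against 208, 191 and 228 CPM (log2FC -0.38, SE 0.09, adjusted p = 0.00194). In both genes every library labelled KO was below every WT library, and 47.1% of all genes did not overlap on that day in either direction. Without the second library labelled KO, which stood apart, Chrng was at a log2FC of -0.61 (adjusted p = 0.000886) and Chrnd at -0.31 (adjusted p = 0.00548), and Chrnb1 then passed as higher (log2FC 0.21, adjusted p = 0.0396). Agrn (log2FC -0.23, adjusted p = 0.0792) was called as lower in 7 of 14 alternative fits, with log2FC from -0.33 to -0.15.

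On day 3, where 43.2% of all genes differed (24% higher, 19.2% lower), 7 of 9 genes were higher in labelled KO libraries and none lower. Lrp4 was the most changed of the 9, at 114, 85.4 and 81.2 CPM against 46.8, 48.6 and 49.0 CPM (log2FC 0.96, SE 0.11, adjusted p = 1.26e-07), and Chrnb1 followed at 177, 159.3 and 156 CPM against 117, 113 and 94.2 CPM (log2FC 0.61, SE 0.08, adjusted p = 2.73e-06). Neither gene overlapped between genotypes, as was true of 60.4% of all genes on that day. Chrnd, Musk, Dok7, Rapsn and Agrn had log2FC of 0.36, 0.50, 0.49, 0.27 and 0.27. Chrng (log2FC 0.15, adjusted p = 0.394) and Chrna1 (log2FC 0.03, adjusted p = 0.827) did not pass on this day, and their ranges overlapped between genotypes. The count of 7 depended on the method: on log2(TPM + 1) with limma, 2 genes were called, Chrnb1 and Lrp4, and leaving out 1 library gave 4 to 6. Agrn was lost without any 1 library except labelled KO replicate 3, Rapsn without replicate 2 or 3 of either genotype, and Dok7 without labelled KO replicate 1 or WT replicate 3 (adjusted p up to 0.148).

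On day 6, where 42.9% of all genes differed (22% higher, 20.8% lower), all 9 genes were higher in labelled KO libraries, and none of the 9 overlapped between genotypes in CPM, as was true of 51.7% of all genes. Lrp4 stood at 156, 158 and 157 CPM against 49.2, 46.6 and 59.5 CPM in WT (log2FC 1.60, SE 0.11, adjusted p = 2.08e-11). Agrn stood at 233, 223 and 212 CPM against 86.0, 80.1 and 100.3 CPM (log2FC 1.33, SE 0.10, adjusted p = 3.54e-10). These agrin pathway genes had the largest differences of the 9. Dok7, the MuSK activator, stood at 59.6, 68.5 and 69.2 CPM against 30.1, 34.4 and 32.7 CPM (log2FC 1.02, SE 0.16, adjusted p = 2.28e-05). Musk stood at 30.7, 32.2 and 27.5 CPM against 13.8, 12.9 and 20.9 CPM (log2FC 0.92, SE 0.13, adjusted p = 4e-06), with WT replicate 3 well above its group mates. Rapsn differed least (log2FC 0.34, SE 0.09, adjusted p = 0.0047).

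Among the receptor genes on day 6, Chrng stood at 269, 352 and 355 CPM against 173, 159.7 and 151 CPM (log2FC 1.01, SE 0.14, adjusted p = 2.67e-06). Chrnb1 stood at 136, 142 and 149.8 CPM against 71.3, 81.1 and 76.0 CPM (log2FC 0.90, SE 0.08, adjusted p = 6.26e-09). Chrnd and Chrna1 differed by log2FC of 0.64 (SE 0.09) and 0.54 (SE 0.09). The median log2FC of the 9 genes was 0.92 on day 6, 0.36 on day 3, -0.23 on day 1 (-0.15 without the library that stood apart) and 0.05 on day 0, against 0.00, 0.04, 0.03 and -0.00 over all tested genes. The 9 calls on day 6 held in each of the 14 alternative fits run. Markers of muscle differed in the same libraries, though not always in the direction of the set. On day 1, when Chrng and Chrnd were lower, 7 of the 10 markers were higher in labelled KO libraries and 1 lower (median log2FC 1.57, and 0.997 without the library that stood apart, with the same counts). On day 3, 9 were higher and none lower, and on day 0, 2 were higher and 1 lower. On day 6, 8 were higher, Myf5, a factor of undifferentiated myoblasts, was lower (log2FC -0.34) and Myod1 did not pass (0.29). Myog, a myogenic factor that acts on E-boxes, averaged 908 CPM against 149 CPM (log2FC 2.61) and Ckm, the muscle creatine kinase, 421 CPM against 24.1 CPM (log2FC 4.13).

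**Figure D2:**
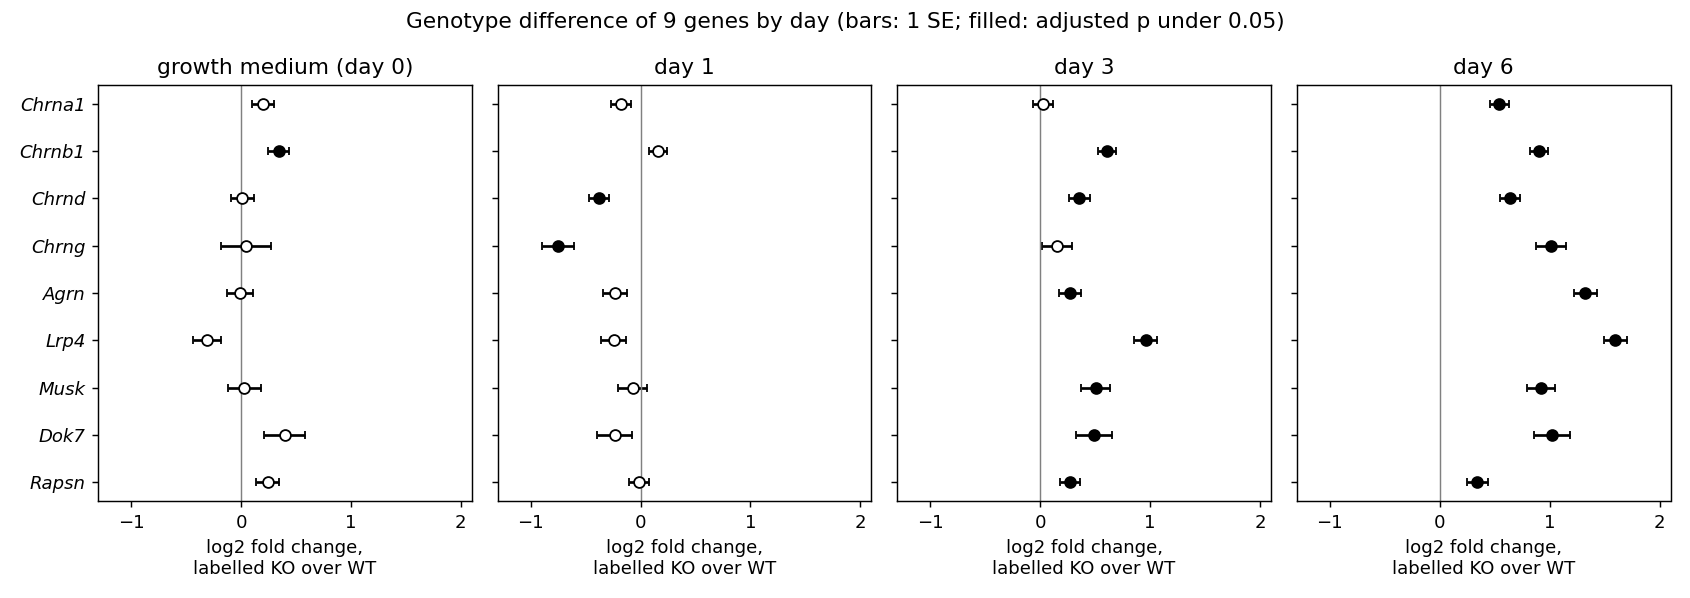
Log2 fold change of the 9 genes other than Chrne, labelled KO against WT, in 1 panel each for days 0, 1, 3 and 6, from the edgeR fit, with bars of 1 SE and filled points for adjusted p under 0.05. Chrng goes from -0.75 on day 1 to 1.01 on day 6, and Lrp4 from -0.24 to 1.60.

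Whether the time course itself differed between genotypes was tested with the genotype-by-time term against day 0. On day 1 none of the 9 genes passed in edgeR (3.95% of all genes did), with 4 at an unadjusted p under 0.05, while DESeq2 called 3 as lower. In edgeR the count was 2 without the filter, 2 without labelled KO day 1 replicate 3, 1 without labelled KO day 0 replicate 3, and 0 without the day 1 library that stood apart. On day 3, with 6.65% of all genes called as higher, only Lrp4 passed (difference in log2FC 1.27, SE 0.16, adjusted p = 1.21e-05). On day 6, with 7.54% called as higher, 6 of 9 passed: Lrp4 (1.91), Agrn (1.34), Chrng (0.97), Musk (0.89), Chrnd (0.63) and Chrnb1 (0.56), each with the more positive change in the cells labelled KO. For Chrnb1 the signs were opposite, at 0.27 in labelled KO libraries and -0.29 in WT. The Chrng term (adjusted p = 0.0168) was lost without labelled KO day 0 replicate 3 or either WT day 0 library, with an adjusted p of up to 0.0988. A pair of terms added after the data were seen compared single steps. From day 1 to day 3, with 3.47% of all genes called as higher, Lrp4 (1.20), Chrng (0.90), Chrnd (0.74), Agrn (0.50) and Chrnb1 (0.45) had the more positive change in the cells labelled KO, although the Agrn and Chrnb1 terms were lost in 13 and 7 of 20 alternative fits. In WT, Chrnd was 1.74 above day 0 on day 1 and 1.59 on day 3, and Chrnb1 0.31 and 0.21, so these did not increase over that step. Without the day 1 library that stood apart, Agrn was at 0.38 (adjusted p = 0.0924), and Lrp4 (1.19), Chrng (0.72), Chrnd (0.62) and Chrnb1 (0.36) still passed. From day 3 to day 6, with 6.36% of all genes called as higher, Agrn (1.06), Chrng (0.86), Lrp4 (0.64) and Chrna1 (0.52) did so, with Chrna1 at -0.16 in WT (adjusted p = 0.289). Agrn, Chrng and Lrp4 thus passed at both steps.

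The adult subunit gene stayed rare beside the fetal one: on days 3 and 6, Chrng made up at least 99.6% of the gamma plus epsilon TPM in each library. On day 0 Chrng itself had 81 to 124 counts, so a Chrne count of 0, which allows up to 3, bounds the share less tightly. Chrne counts in WT were 1, 2 and 0 on day 1, 0 in all 3 libraries on day 3, and 4, 1 and 3 on day 6. In labelled KO libraries they were 0 on day 1, 4, 1 and 4 on day 3, and 8, 20 and 12 on day 6. The day 6 libraries labelled KO were above every other library. Their 40 counts against 8 gave a ratio of 5.06 (exact 95% counting interval 2.34 to 12.5), which covers counting error only. The mean of the day 6 libraries labelled KO, 0.578 CPM (0.353 to 0.860), was 4.13 times the day 0 limit of 0.14 CPM. Chrne passed the filter only through the groups in which it was highest, so both values are descriptions.

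No genotype difference is read from the gamma to epsilon ratio. Chrne was at 0 in every WT library on day 3 and every labelled KO library on day 1, where the pseudocount sets the ratio. Over days 1, 3 and 6 the log2 ratio of Chrng to Chrne (labelled KO minus WT) was -0.82 on TPM + 0.1 and -0.20 on TPM + 1. The planned two-sided exact permutation p went with it from 0.003 to 0.124, and the day 6 difference changed sign from -1.06 to 0.21.

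**Figure D3:**
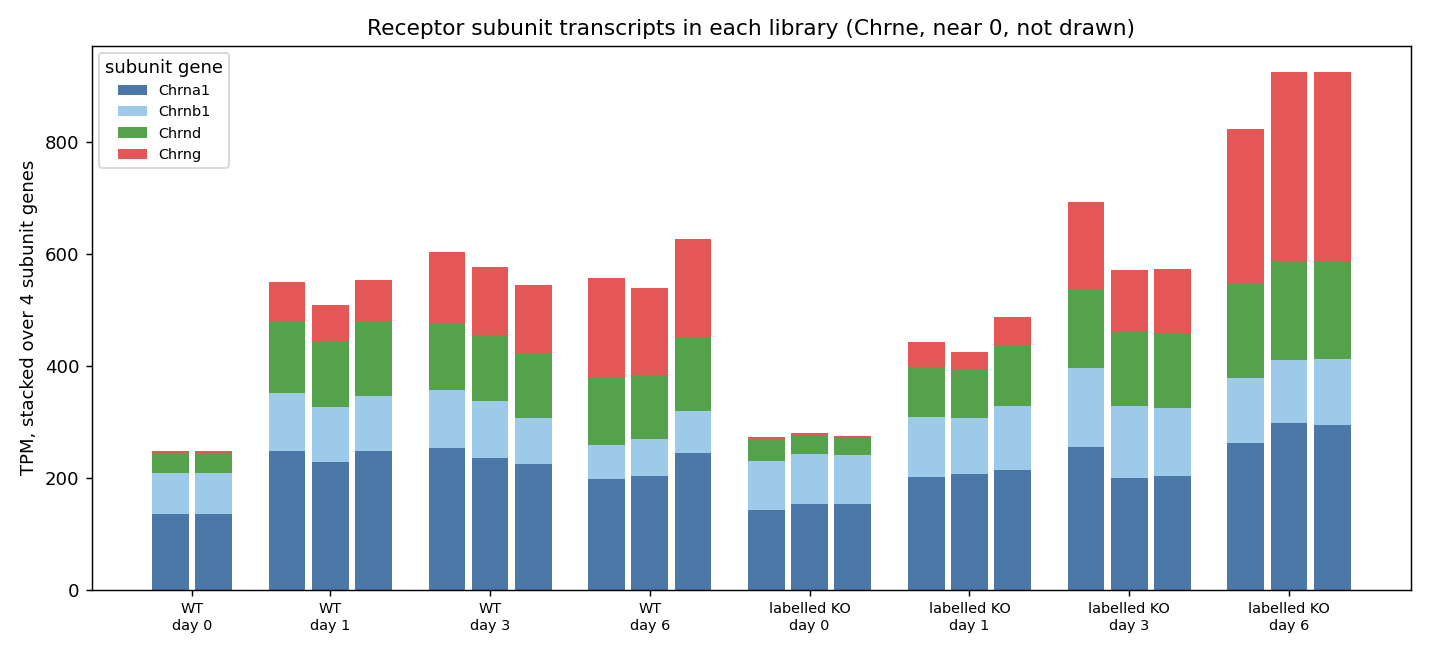
TPM of Chrna1, Chrnb1, Chrnd and Chrng stacked in each of the 23 libraries, grouped by genotype and then day; Chrne, at most 1.23 TPM, is not drawn. The day 6 stacks labelled KO are the tallest, and the Chrng share widens with day in both genotypes.

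The makeup of receptor transcripts changed with time in both genotypes. The summed level of the 5 subunit genes in WT was 248 ± 0.976 TPM (SD, n = 2) on day 0 and then 536 ± 24.8, 574 ± 28.9 and 574 ± 45.6 TPM (SD, n = 3). In labelled KO libraries it was 276 ± 3.81, 451 ± 31.9, 612 ± 69.5 and 891 ± 59.0 TPM (SD, n = 3). The share of Chrng in that sum went from 1.97% to 13%, 21.6% and 29.7% in WT, and from 1.67% to 9.43%, 20.8% and 35.6% in labelled KO libraries. The day 1 library that stood apart had a sum of 424.5 TPM and a Chrng share of 7.60%, below the shares of 10.3% and 10.4% in its group mates. The ratio of Chrng to Chrnd TPM averaged 0.142 in WT and 0.139 in labelled KO libraries on day 0. On day 1 it was 0.541 to 0.570 in WT and 0.378 to 0.515 in labelled KO libraries, and on day 6 it was 1.32 to 1.51 and 1.65 to 1.96, so the order of the genotypes was opposite on those days. On day 6 the order of mean levels was Chrna1, Chrng, Chrnd, Rapsn and Chrnb1 in WT. In labelled KO libraries Chrng was first and Chrna1 second, and Chrnb1 came before Rapsn.

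Nicotinic receptor subunit genes outside the muscle receptor had few reads or none. Of 11 such genes, 6 had no read in any of the 23 libraries, 8 never had more than 3 counts, and 1, Chrnb2, had enough reads for a test. Chrnb2 was lower in labelled KO libraries on days 1 and 3 (log2FC -1.24 and -1.92, adjusted p = 0.033 and 0.00113) at 2 to 35 counts per library, with a log2FC of -0.01 on day 6. Without the day 1 library that stood apart its day 1 log2FC was -1.54 (adjusted p = 0.0319).

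The wider set of 56 synapse genes (signalling below MuSK, scaffold, synaptic cleft, neuregulin and its receptors, subsynaptic transcription and receptor glycosylation), of which 53 had enough reads for a test, moved in both directions. On day 0, 6 were higher in labelled KO libraries than in WT (11.3%, against 7.36% of all genes) and 5 lower (9.43%, against 10.1%). On day 1, 13 were higher (24.5%, against 22.9%) and 12 lower (22.6%, against 19.2%). On day 3, 13 were higher (24.5%, against 24%) and 13 lower (24.5%, against 19.2%). On day 6, 20 were higher (37.7%, against 22%) and 13 lower (24.5%, against 20.8%). The share higher on day 6 stood furthest from that of all genes. Whether the shares of the list differ from those of all genes was not tested. Without the day 1 library that stood apart, 12 were higher and 11 lower on day 1. On day 6 the postsynaptic scaffold list had 7 of 13 genes higher and 2 lower, including Sntb1, the membrane adaptor beta-1 syntrophin (log2FC 2.95). The neuregulin list had 2 of 3 higher and 1 lower, including the receptor gene Erbb3 (log2FC 2.30, after 1.10 on day 3). The cleft list had 4 of 9 higher and 3 lower, the lower ones including the laminin chain gene Lama4 (log2FC -3.30, after -4.33 and -3.79 on days 1 and 3) and the nidogen gene Nid2 (log2FC -1.78). The laminin chain gene Lama2 was higher on days 0, 1, 3 and 6 (log2FC 1.72, 1.18, 1.38 and 1.23). Without that library the day 1 log2FC was -4.09 for Lama4 and 1.03 for Lama2. Signalling below MuSK had 5 of 17 higher and 3 lower, transcription 2 and 2 of 6, and glycosylation 0 and 2 of 5. Hdac9, which encodes a histone deacetylase, was lower on day 3 (log2FC -3.37).

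**Figure D4:**
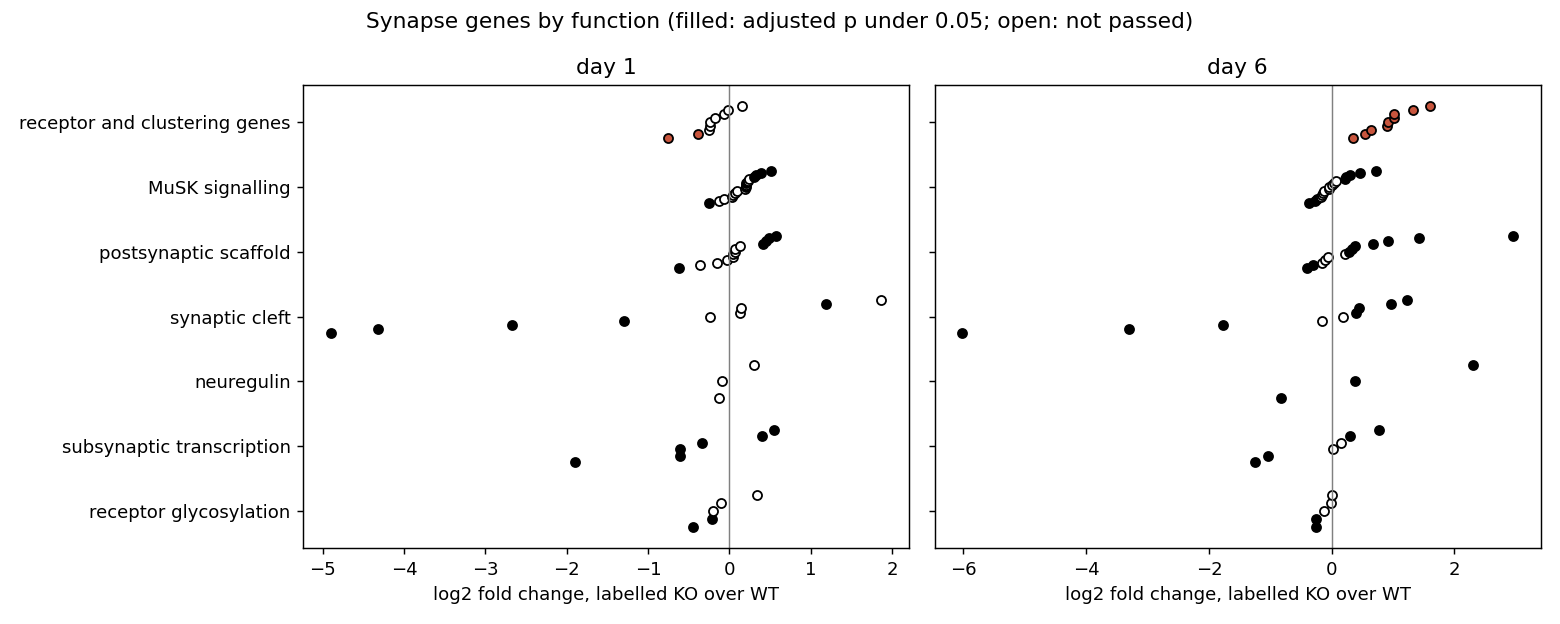
Log2 fold change, labelled KO against WT on day 1 (left) and day 6 (right), of the receptor and clustering genes (without Chrne) and of each tested gene in 6 wider synapse lists, with filled points for adjusted p under 0.05; fitted values of genes with a few reads depend on the prior count. On day 6 the receptor and clustering points all lie above 0, whereas every wider list has points below 0.

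Ache and Colq, which encode the esterase that clears acetylcholine and the collagen tail that anchors it, were looked at after their values were seen. Ache was lower in labelled KO libraries on days 1 and 3 (log2FC -1.29 and -0.66; on day 1 -1.13 without the library that stood apart) and higher on day 6 (0.45). Colq had 16 to 23 counts on day 3 in labelled KO libraries and 1 to 3 in WT, and was higher on day 6 (log2FC 0.97).

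Among genes that muscle raises after loss of its nerve, the direction was mixed on day 6. Myog, Runx1, the stress gene Gadd45a (log2FC 1.36) and the ubiquitin ligase gene Trim63 (1.77) were higher in labelled KO libraries. The ligase gene Fbxo32 (-0.49) was lower, and the adhesion gene Ncam1 (0.07) did not pass.

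Over the 8 group means of log2 CPM, the genes most like Chrng among 10657 candidates were Klhl41 (r = 0.9969), Hdac11 (r = 0.9943) and Pdk2 (r = 0.9933). These correlations are descriptions over 8 points that share the same time course.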

How the data were processed

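The authors deposited 2 gene tables over the 23 libraries. The first holds estimated counts for each symbol, as whole numbers, as deposited by the authors. The second holds TPM, which the authors scaled by transcript length and depth. The submitters' processing notes name Bowtie2, RSEM and mm10, and versions, annotation and use of strand are not given in the sources used here. Counts were rounded, which changed no value, and filtered with filterByExpr (minimum count 10, minimum total 15), leaving 14187 genes. They were tested with edgeR 4.0.16 (R 4.3.3): TMM scaling, 1 group-means model over 23 libraries, quasi-likelihood F-tests in 17 contrasts and Benjamini-Hochberg adjustment over all tested genes, with a threshold of 0.05. Of the 17, 2 contrasts were added after the data were seen. Log2 CPM used a prior count of 2. Comparisons that share a group, such as the 3 later days against day 0, are not independent.

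On data simulated from these libraries (day 6, 200 of 14187 genes changed), the test recovered 76% of genes changed by 1 on the log2 scale and 95% of those changed by 2, and 5.52% of its calls were false. In the simulation all other genes kept the same mean in every group, whereas 42.9% of genes differed on day 6 in the data. These rates are therefore not those of the calls above. The 10 genes and all lists were chosen with earlier results of these data known. Other genes named from the wider lists, apart from Ache and Colq, came from the 2 highest and 2 lowest called genes with at least 5 CPM in 1 group, per genotype contrast. That rule also picked Syne1 (higher) and Nid2 (lower) on days 0 and 1 and Hdac4 (lower) on day 0, which are not described above for those days. Pairing of replicate numbers was checked over 32 pairs of groups' libraries: correlations of deviations ran from -0.24 to 0.116 and 1 exceeded 0.1, so numbers were not taken as pairs. Alternatives were other scalings, no filter, DESeq2 1.42.0, limma 3.58.1 on log2(TPM + 1) and log2(TPM + 0.1), only the groups compared, a replicate block and leaving out each library. Values of muscle markers and other named genes without the day 1 library that stood apart were added after the data were seen. Intervals and limits cover counting error only, since reads carry no molecular identifiers in the tables. Gene records and promoters came from RefSeq, build GRCm38.p6. Of the list of genes raised after loss of the nerve, 1 gene is not reported here.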

Additional observations from a re-analysis of the deposited data

Results flagged for a closer look

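The change over time differed between genotypes, by a test of the difference itself (edgeR, adjusted p under 0.05), in 16 results, each with the more positive change in the cells labelled KO. Over all genes, 51.5% to 62.1% of the calls in these contrasts were in that direction. Against day 0 these were Lrp4 on day 3 (1.27 on the log2 scale), and on day 6 Lrp4 (1.91), Agrn (1.34), Chrng (0.97), Musk (0.89), Chrnd (0.63) and Chrnb1 (0.56). Between days 1 and 3 they were Lrp4 (1.20), Chrng (0.90), Chrnd (0.74), Agrn (0.50) and Chrnb1 (0.45). Between days 3 and 6 they were Agrn (1.06), Chrng (0.86), Lrp4 (0.64) and Chrna1 (0.52). The last 9 come from the contrasts added after the data were seen. The call was lost in 13 of 20 alternative fits for Agrn and 7 of 20 for Chrnb1 between days 1 and 3, in 3 of 19 for Chrng on day 6, and in 1 of 20 for Lrp4 between days 3 and 6. Results that share day 0 or day 3 libraries are not independent of each other. Groups held at most 3 libraries, so no search for single outlying values within a group was made.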

How the results depend on the processing

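Counts here are over the 9 genes other than Chrne. The count called between genotypes on day 0 was 5 in a fit of only the groups compared, and on day 1 it was 4 with library size only. On day 3 it was 2 with limma on log2(TPM + 1) and on log2(TPM + 0.1), where the planned count over all 10 genes was 3. For WT between days 6 and 3 it was 1 with limma on log2(TPM + 1), for labelled KO on day 1 against day 0 it was 5 with log2(TPM + 0.1), and for the day 1 to day 3 step it was 3 with log2(TPM + 1). The interaction count on day 1 was 2 without a filter and 3 with DESeq2, and on day 3 it was 3 with only the groups compared. Of the wider synapse list, 19 genes were called on day 0 with only the groups compared. With a pseudocount of 1 the Chrng to Chrne difference was -0.17 on day 3, 0.21 on day 6 and -0.20 together. The Chrne step from day 3 to day 6, from which nothing is read, changed sign on log2(TPM + 1) (0.49). The cause was not tested in any of these.

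Leaving out 1 library gave 0 to 1 genes between genotypes on day 0, 2 to 4 on day 1 and 4 to 6 on day 3 (5 to 7 over all 10). It gave 1 to 2 for WT between days 6 and 3, 3 to 5 for labelled KO on day 1 and 5 to 7 between days 6 and 3, and 4 to 6 for WT on day 1. It gave 0 to 2 for the day 1 interaction, 3 to 7 for the day 1 to day 3 step, and 5 to 8 for the synapse list on day 0.

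The replicate block made 3 of 153 results of the 9 genes miss the threshold (given above) and gained or reversed none. With the block the counts between genotypes were 1, 2, 7 and 9 on days 0, 1, 3 and 6, and 1 for WT between days 6 and 3. Library size scaling moved the share of higher calls over all genes from 42.1% to 29.5% on day 0 (31.3% with TPM), and TPM from 55.5% to 34.3% on day 3 and from 51.4% to 34.9% on day 6, while the 9 genes other than Chrne stayed higher on day 6. Chrne is limited by depth in every group.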
